A study of Arabidopsis thaliana with 12 samples.

Results

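The glutathione S-transferases (GSTs) of Arabidopsis were followed across rosettes of the accessions Cvi-0 (Cvi) and Shahdara (Sha) exposed to ozone (O3) or kept in clean air (CA). The members were taken by locus from a list of 46 genes, which was chosen with earlier results of these data known. They comprise 28 genes of the tau class (GSTU1 to GSTU28), 13 of the phi class (GSTF2 to GSTF14), GSTZ1 of the zeta class, GSTL1, GSTL2 and GSTL3 of the lambda class and GSTT1 of the theta class. All 46 loci were found among the 34212 loci of the count table, all 46 had at least 1 count, and all were therefore among the 28549 genes tested.

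RNA-seq was done on whole rosettes of plants aged 3 weeks. The 4 groups were Cvi in O3, Cvi in CA, Sha in O3 and Sha in CA, with 3 libraries each. O3 was given at 350 nL L-1 for 2 h, and the CA plants stayed in clean air for the same 2 h. Each library came from 4 pooled rosettes harvested immediately after exposure, and both accessions are natural ones that carry no transgene or induced mutation in the labels, so Cvi and Sha differ at many loci and not at 1 defined gene.

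GSTs join the tripeptide glutathione to electrophilic compounds, which are then moved into the vacuole and broken down, and many also act as glutathione peroxidases or as carriers of small molecules. The tau and phi classes are plant enzymes with a catalytic serine and are known as genes of the response to xenobiotics, pathogens and oxidative stress. Lambda enzymes lack the catalytic serine and act in thiol transfer, the zeta enzyme works in tyrosine breakdown, and theta enzymes have glutathione peroxidase activity.

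Total counts were 21699862 to 31565681 in Cvi in O3, 23774392 to 33571953 in Cvi in CA, 12871261 to 25158564 in Sha in O3 and 10794686 to 27895667 in Sha in CA, so the Sha groups each held 2 shallow libraries. The level of a gene is given as CPM, the count scaled to a common library size after TMM (trimmed mean of M-values) adjustment. A count of 3, used as the floor below which a gene is not told from absent, corresponded to 0.0941 to 0.272 CPM, and floors cover counting error only. Replicate 2 of Sha stood apart in both treatments: its counts differed from those of the other replicates of its group by a chi-square statistic per degree of freedom of 50.5 to 80.7, against 15 to 25.2 for all other pairs within groups. Counts of called members are therefore also given without these 2 libraries. Markers of the rosette leaf were abundant in all libraries. The 5 leaf markers RBCS1A, CA1, LHCB1.1, GAPA and RCA summed to 16143 to 19867 CPM in Cvi in O3 and 44158 to 49063 CPM in Cvi in CA, and to 5845 to 15085 CPM in Sha in O3 and 28866 to 41141 CPM in Sha in CA. All 5 were called lower in O3 in each accession, and whether this drop has a part in the changes of GST levels was not tested. The 4 root markers summed to 18.2 to 45.5 CPM over the 12 libraries, nearly all of it from PHO1. EXPA7, COBL9 and CASP1 had at most 0.181 CPM in any library. EXPA7 and CASP1 were at 0 in both groups of Cvi, and EXPA7 also in Sha in O3. The 3 guard cell markers summed to 44.1 to 77.2 CPM and the 2 trichome markers to 7.49 to 13.6 CPM. The 3 flower markers AP3, PI and AG summed to 0.297 to 0.557 CPM in Cvi in O3, 0.125 to 0.541 CPM in Cvi in CA, 2.72 to 5.01 CPM in Sha in O3 and 4.08 to 8.58 CPM in Sha in CA, and AP3 was at 0 in Cvi in O3. In such bulk samples, fewer cells of a type and less RNA per cell cannot be told apart.

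The summed level of the phi class was several-fold higher in O3 than in CA in both accessions, and that of the tau class differed less between O3 and CA. No test was made on these sums. The 13 phi genes together held 12821, 10937 and 13702 CPM in Cvi in O3, against 1718, 2108 and 1959 CPM in Cvi in CA. In Sha they held 12209, 14978 and 14320 CPM in O3, against 1930.5, 1821 and 1820.4 CPM in CA. The O3 and CA libraries did not overlap in either accession. The 28 tau genes held 3819, 3559.6 and 3561 CPM in Cvi in O3 and 2581, 2619.5 and 2280.0 CPM in Cvi in CA. In Sha, the tau sum was 2608, 2314 and 3296 CPM in O3 and 2315, 2751 and 2321 CPM in CA, and these libraries overlapped. The ratio of phi to tau counts was thus 3.43 ± 0.394 in Cvi in O3 and 0.777 ± 0.0996 in Cvi in CA, and 5.16 ± 1.14 in Sha in O3 and 0.760 ± 0.0885 in Sha in CA (mean ± SD, n = 3 each). The 5 remaining genes held 422 to 467 CPM in Cvi in O3, 342 to 408 CPM in Cvi in CA, 438 to 523 CPM in Sha in O3 and 338 to 451 CPM in Sha in CA.

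**Figure D1:**
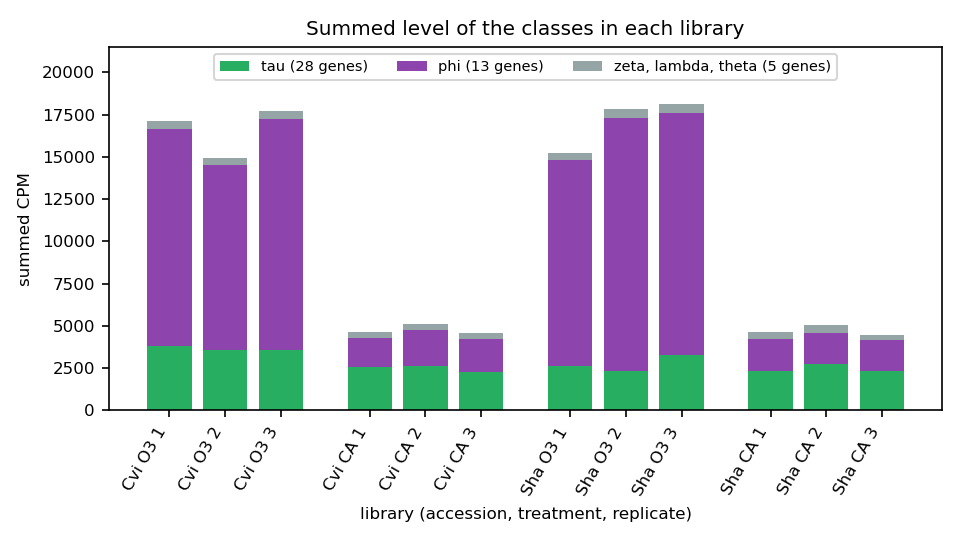
Summed CPM of the tau (28 genes), phi (13 genes) and remaining (5 genes) GSTs in each of the 12 libraries, as stacked bars on a linear axis from 0. The phi part of the bar lies between 10937 and 14978 CPM in the 6 O3 libraries and between 1718 and 2108 CPM in the 6 CA libraries.

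Single genes took large parts of these sums. Per kilobase of coding sequence, GSTU20 had the highest level of all members in CA, with 2276 CPM per kb in Cvi and 2451 CPM per kb in Sha, followed by the phi gene GSTF9 with 2111 CPM per kb in Cvi and 1703 CPM per kb in Sha. In O3 the highest level was that of the phi gene GSTF6, with 8280.1 CPM per kb in Cvi and 9264 CPM per kb in Sha, and GSTF7, GSTF2 and GSTF8 took the next places in both accessions. Without the most abundant gene of each class (GSTU20 and GSTF6), the tau sum was 2878 ± 45.0 CPM in Cvi in O3 and 1005 ± 36.7 CPM in Cvi in CA, and 1933 ± 408 CPM in Sha in O3 and 859.7 ± 32.5 CPM in Sha in CA (SD, n = 3 each). The phi sum was then 7295 ± 826 CPM in Cvi in O3 and 1887 ± 197 CPM in Cvi in CA, and 8027 ± 742 CPM in Sha in O3 and 1736 ± 52.0 CPM in Sha in CA. The ratio of phi to tau counts without these genes was 2.54 ± 0.310 in Cvi in O3 and 1.88 ± 0.25 in Cvi in CA, and 4.26 ± 0.873 in Sha in O3 and 2.02 ± 0.0889 in Sha in CA. Much of the difference of the ratio between O3 and CA thus rested on GSTU20 and GSTF6 in both accessions. Without GSTU20, the tau sums of the O3 and CA libraries did not overlap in either accession.

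**Figure D2:**
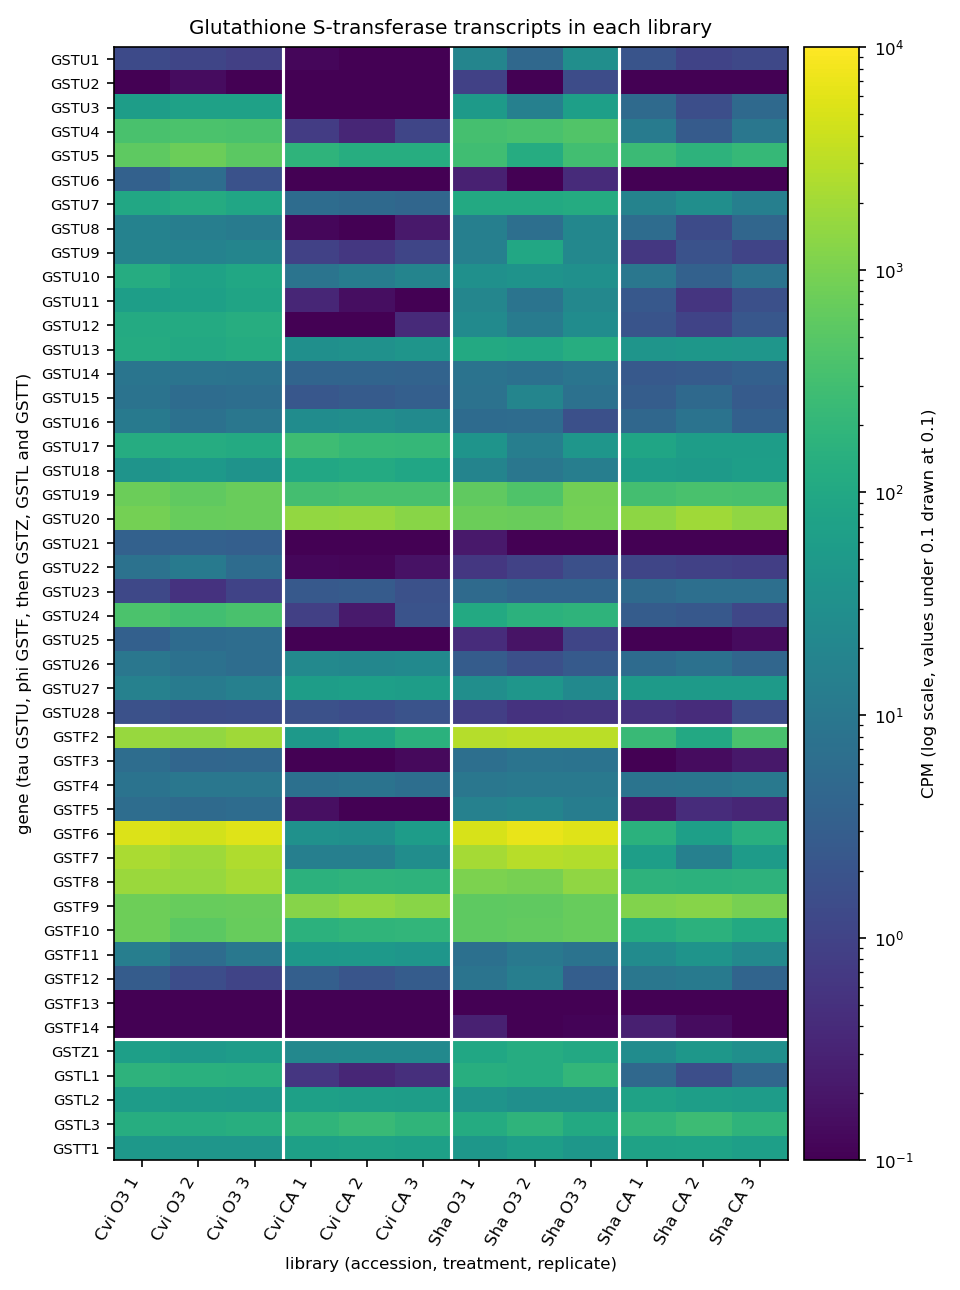
Heat map of the CPM of the 46 members (rows, tau above phi above the other classes) in the 12 libraries (columns, 3 replicates of each group), with colour on a log scale and values under 0.1 CPM drawn at 0.1. Most rows of the upper tau block and GSTF2 to GSTF8 are brighter in the O3 columns, with GSTF4 as an exception, whereas GSTU16 to GSTU18, GSTU20, GSTU26, GSTU27, GSTF9 and GSTF11 are darker there in Cvi.

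Most members showed increased transcript accumulation in O3 in both accessions, and a smaller group showed decreased accumulation. A gene is called when its change exceeds 1.2-fold at a Benjamini-Hochberg false discovery rate of at most 0.05 over all 28549 genes (edgeR). In Cvi, 28 of the 46 members were called higher in O3 and 11 lower, beside 47.5% of all genes tested called, 24.3% higher and 23.2% lower. In Sha, 26 members were called higher and 10 lower, beside 34.5% of all genes called, 17.9% higher and 16.6% lower. The members called lower were 23.9% of the list in Cvi, close to the 23.2% of all genes. In Sha they were 21.7% of the list, beside 16.6% of all genes. The limit of 1.2 can also be read as a log2 value, and then 24 members were called higher and 2 lower in Cvi, and 19 higher and 1 lower in Sha. The share of all genes called at that limit is not given here. The median log2 fold change (O3 over CA) of the members was 2.13 in Cvi and 1.52 in Sha, and 0 over all genes tested in each accession. Setting genes at the floor in 1 group to their bound and leaving out those at the floor in both gave medians of 2.09 in Cvi and 1.52 in Sha. The 25 members called higher in both accessions made up 25 of the 28 in Cvi and 25 of the 26 in Sha, and 9 members were called lower in both. The share of all genes called in both accessions is not given here. Without replicate 2 of Sha in both treatments, 28 members were called higher and 11 lower in Cvi, and 26 higher and 10 lower in Sha.

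By class, the tau genes gave 19 higher and 7 lower of 28 in Cvi and 17 higher and 5 lower in Sha. The phi genes gave 7 higher and 2 lower of 13 in each accession. The median log2 fold change was 2.55 for tau and 2.59 for phi in Cvi, and 1.52 for tau and 2.27 for phi in Sha. With floor genes at their bound the medians were 2.93 for tau and 3.45 for phi in Cvi, and 1.41 for tau and 2.52 for phi in Sha. Of the 5 other genes, GSTZ1 and GSTL1 were called higher in both accessions, GSTL3 and GSTT1 lower in both, and GSTL2 lower in Sha.

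**Figure D3:**
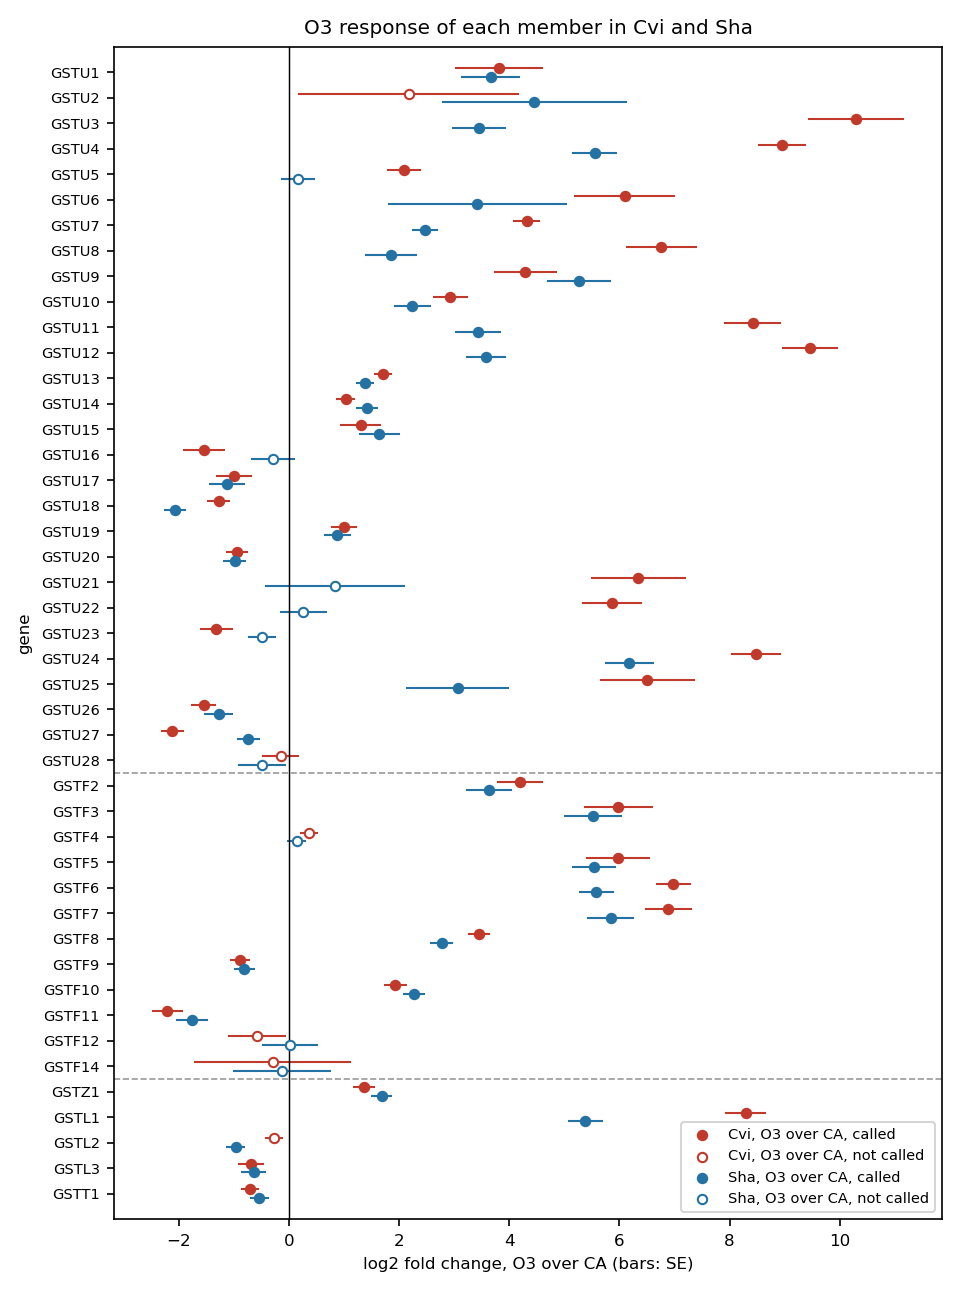
Log2 fold change in O3 over CA of 45 members in Cvi and in Sha, with bars of 1 SE and filled points for called changes; GSTF13, with 2 counts in all, is left out, and values of genes at the floor in a group depend on the fit's prior count. The called changes of the tau class run from -2.12 (GSTU27) to 10.3 (GSTU3) in Cvi and from -2.07 (GSTU18) to 6.18 (GSTU24) in Sha.

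Among the tau genes, the largest increases by fitted fold change in Cvi were those of GSTU3, GSTU12 and GSTU4. GSTU3 (AT2G29470, chromosome 2, 12628422 to 12629640, minus strand) had 60.2, 73.7 and 72.0 CPM in Cvi in O3, against 0.0941, 0 and 0.0436 CPM in Cvi in CA. All 3 CA libraries were at the floor of 3 counts, so that the level in O3 was at least 604-fold higher. In Sha, GSTU3 had 52.2, 14.9 and 65.1 CPM in O3 and 5.26, 1.60 and 5.19 CPM in CA, a log2 fold change of 3.45 ± 0.497 (SE, adjusted p = 4.81e-09), with replicate 2 lowest in both treatments. GSTU4 (AT2G29460, chromosome 2, 12626478 to 12627891, minus strand) had 359, 388 and 373 CPM in Cvi in O3, against 0.784, 0.348 and 1.13 CPM in Cvi in CA (log2 fold change 8.95 ± 0.437, adjusted p = 9.38e-53). In Sha, GSTU4 had 332, 372 and 443 CPM in O3, against 12.1, 2.76 and 9.62 CPM in CA (5.55 ± 0.403, adjusted p = 1.02e-27). For both genes the O3 libraries of the accessions overlapped and the CA libraries did not. GSTU12 (AT1G69920, chromosome 1, 26334250 to 26335630, minus strand) had 112, 115 and 132 CPM in Cvi in O3 and 0.0941, 0.0387 and 0.392 CPM in Cvi in CA (9.46 ± 0.513, adjusted p = 6.35e-73). The Sha libraries had 24.3, 11.8 and 27.6 CPM in O3 and 2.00, 1.02 and 2.27 CPM in CA (3.57 ± 0.362, adjusted p = 6.15e-18).

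GSTU24 (AT1G17170, chromosome 1, 5869543 to 5870883, plus strand), whose enzyme is known to conjugate the explosive trinitrotoluene, showed the largest fitted increase of all members in Sha. In Sha its levels were 109.6, 166 and 175 CPM in O3, against 2.81, 2.40 and 1.17 CPM in CA (6.18 ± 0.445, adjusted p = 4.51e-28). Its Cvi libraries had 384, 307 and 367 CPM in O3 and 0.878, 0.232 and 1.87 CPM in CA (8.48 ± 0.450, adjusted p = 3.14e-44). Its tandem neighbour GSTU25, an enzyme with the same known activity, had 3.38, 5.60 and 6.06 CPM in Cvi in O3 with all 3 Cvi CA libraries at the floor, at least 44.1-fold higher, and 0.433, 0.181 and 1.13 CPM in Sha in O3. The Sha rise of GSTU25 was called but rested on replicate 3 of O3, without which its adjusted p was 0.0597. Likewise GSTU2 was called higher in Sha from levels of 0.938, 0 and 1.43 CPM in O3 against the floor in CA, at least 4.00-fold, and was no longer called without replicate 3 of Sha in O3 (adjusted p = 0.0886) or replicate 1 of Sha in CA (adjusted p = 0.0548). GSTU6, with 3.53, 5.99 and 1.85 CPM in Cvi in O3, was at least 33.3-fold higher there than in Cvi in CA, but in Sha its call rested on at most 0.415 CPM per library and was lost without replicate 3 of Sha in O3 (adjusted p = 0.139). Smaller changes were seen for GSTU13, which acts in indole glucosinolate metabolism, with log2 fold changes of 1.71 ± 0.166 in Cvi and 1.38 ± 0.167 in Sha, and for GSTU19, a highly expressed tau enzyme, with 1.00 ± 0.239 in Cvi and 0.88 ± 0.239 in Sha. GSTU14 rose by 1.03 ± 0.174 in Cvi and 1.41 ± 0.198 in Sha, GSTU15 by 1.30 ± 0.370 in Cvi and 1.64 ± 0.372 in Sha, GSTU10 by 2.93 ± 0.323 in Cvi and 2.24 ± 0.331 in Sha, and GSTU9 by 4.29 ± 0.572 in Cvi and 5.27 ± 0.578 in Sha. In Sha in O3, replicate 2 stood above the others for GSTU9 (100.1 CPM, against 15.1 and 21.8) and GSTU15 (19.0 CPM, against 7.57 and 7.39). The size of their Sha rises thus leans on that library. GSTU28 was not called in either accession, with log2 fold changes of -0.15 ± 0.338 in Cvi and -0.49 ± 0.43 in Sha. GSTU23 fell in Cvi by 1.32 ± 0.301, and its log2 fold change in Sha, -0.49 ± 0.251, was not called.

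In the phi class, the neighbours GSTF6 and GSTF7 had the largest fitted changes in both accessions. GSTF6 (AT1G02930, chromosome 1, 661088 to 662475, minus strand) takes part in the synthesis of the indole phytoalexin camalexin. It had 5428, 4513 and 5634 CPM in Cvi in O3, against 33.8, 30.9 and 58.7 CPM in Cvi in CA (6.98 ± 0.317, adjusted p = 5.37e-61). Its Sha libraries had 5019.8, 6685 and 5720.2 CPM in O3, against 154, 67.3 and 144 CPM in CA (5.58 ± 0.316, adjusted p = 1.34e-43). The O3 libraries of the accessions overlapped, and every CA library of Sha was above every CA library of Cvi. GSTF7 (AT1G02920, chromosome 1, 658578 to 659980, minus strand) had 2334, 1892 and 2509 CPM in Cvi in O3 and 14.3, 14.1 and 28.4 CPM in Cvi in CA (6.89 ± 0.424, adjusted p = 3.81e-34). In Sha it had 2132, 2943 and 2688 CPM in O3 and 64.4, 15.0 and 55.7 CPM in CA (5.84 ± 0.423, adjusted p = 1.1e-26), where replicate 2 of Sha in CA was at the level of Cvi in CA. The proteins of GSTF6 and GSTF7 were 93.3% identical and their coding sequences 94.3%, so that the split of counts between these genes is uncertain. The same holds for GSTF2 and GSTF3, with 92.5% protein and 94.5% coding identity, where GSTF2 had 1578 to 1968 CPM in Cvi in O3 and 2802 to 3102 CPM in Sha in O3, and GSTF3 had 4.51 to 6.11 CPM in Cvi in O3 and 6.71 to 8.56 CPM in Sha in O3.

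GSTF2, which binds indole compounds such as camalexin, rose by 4.19 ± 0.418 in Cvi and 3.63 ± 0.418 in Sha on the log2 scale. GSTF8, whose promoter is a classic reporter of oxidative stress and salicylic acid, had 1754, 1681 and 2130.2 CPM in Cvi in O3 and 163, 179.9 and 168 CPM in Cvi in CA. Sha libraries had 1052, 939 and 1469.6 CPM in O3 and 174, 162 and 172 CPM in CA. The CA levels of GSTF8 overlapped between the accessions, and its log2 fold change was 3.45 ± 0.201 in Cvi and 2.77 ± 0.201 in Sha. GSTF5, located beside GSTF6, rose by 5.98 ± 0.583 in Cvi and 5.54 ± 0.397 in Sha. GSTF12 (TRANSPARENT TESTA 19), a carrier of flavonoids to the vacuole, was not called in either accession, with log2 fold changes of -0.58 ± 0.522 in Cvi and 0.02 ± 0.506 in Sha. GSTF4 was not called either, with 0.36 ± 0.167 in Cvi and 0.14 ± 0.171 in Sha. GSTF3 rose by 5.52 ± 0.532 in Sha and was at least 44.6-fold higher in O3 in Cvi, where its CA libraries were at the floor. GSTF13 had 2 counts over all libraries and GSTF14 at most 4 counts in any library, so no change was detectable for them at this depth.

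The 9 members called lower in O3 in both accessions were GSTU17, GSTU18, GSTU20, GSTU26, GSTU27, GSTF9, GSTF11, GSTL3 and GSTT1. With the limit of 1.2 read as a log2 value, the only members called lower were GSTU27 and GSTF11 in Cvi and GSTU18 in Sha, so that no member was called lower in both. GSTU20 (AT1G78370, chromosome 1, 29484120 to 29485389, minus strand), an interactor of the jasmonate conjugating enzyme JAR1, had 897, 682 and 728 CPM in Cvi in O3, against 1534, 1629 and 1302 CPM in Cvi in CA (log2 fold change -0.95 ± 0.201, adjusted p = 0.000196). In Sha it had 769, 734 and 917 CPM in O3, against 1423, 1924 and 1461 CPM in CA (-0.99 ± 0.201, adjusted p = 0.000143). No O3 library of GSTU20 reached any CA library in either accession. GSTF11 (AT3G03190, chromosome 3, 734892 to 735987, plus strand), assigned to the synthesis of aliphatic glucosinolates, had 13.7, 5.90 and 10.2 CPM in Cvi in O3 and 45.8, 50 and 42.3 CPM in Cvi in CA (-2.21 ± 0.281, adjusted p = 8.17e-12). Sha libraries had 7.0, 10.6 and 7.88 CPM in O3 and 26.1, 38.0 and 22.5 CPM in CA (-1.76 ± 0.286, adjusted p = 1.59e-07). The annotated gene AT3G03200 overlaps GSTF11 on the opposite strand, and the use of strand in counting is not stated, so the values of GSTF11 are uncertain. GSTU18 had 38.9, 48.0 and 37.1 CPM in Cvi in O3 and 99.6, 112 and 89.9 CPM in Cvi in CA (-1.28 ± 0.201, adjusted p = 1.71e-07). In Sha it had 18.0, 9.71 and 14.0 CPM in O3 and 58.3, 54.1 and 62.3 CPM in CA (-2.07 ± 0.208, adjusted p = 1.77e-17). It overlaps GSTU17, known as EARLY RESPONSIVE TO DEHYDRATION 9, on the same strand, and GSTU17 fell by 1.00 ± 0.325 in Cvi and by 1.12 ± 0.327 in Sha on the log2 scale.

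GSTU26 had 9.48, 7.18 and 6.16 CPM in Cvi in O3, against 22.7, 20.8 and 23.4 CPM in Cvi in CA (-1.55 ± 0.223, adjusted p = 3.59e-09), and 2.88, 1.69 and 2.56 CPM in Sha in O3, against 5.62, 7.34 and 4.53 CPM in Sha in CA (-1.28 ± 0.261, adjusted p = 5.16e-05). GSTF9, a phi gene of high basal level, had 799, 692 and 727 CPM in Cvi in O3 and 1243, 1556 and 1305 CPM in Cvi in CA, and 576, 605 and 701 CPM in Sha in O3 and 1122, 1249 and 939 CPM in Sha in CA. The O3 and CA libraries of both genes were separate in each accession. GSTL3, a lambda gene, had 128, 124 and 136 CPM in Cvi in O3 and 189.9, 247 and 187 CPM in Cvi in CA, and 121, 178 and 107 CPM in Sha in O3 and 192, 263 and 177 CPM in Sha in CA. Its O3 and CA libraries were separate in Cvi, and in Sha the O3 library of replicate 2 was just above the CA library of replicate 3. GSTT1 had 45.6, 42.1 and 42.9 CPM in Cvi in O3 and 70.0, 74.4 and 68.7 CPM in Cvi in CA, and 43.8, 63.9 and 44.8 CPM in Sha in O3 and 74.9, 80.3 and 67.3 CPM in Sha in CA. The Sha calls of GSTL3 (-0.64 ± 0.228, adjusted p = 0.0462) and GSTT1 (-0.54 ± 0.17, adjusted p = 0.0415) were each lost in 15 of 23 alternative analyses, and that of GSTL3 in Cvi (-0.69 ± 0.228, adjusted p = 0.0215) in 9 of 23. GSTT1 has a related gene, AT5G41220, with 90.7% identity in the part of the transcript that aligns, so its counts are uncertain. GSTZ1, the maleylacetoacetate isomerase of tyrosine breakdown, was called higher, with 67.0, 51.1 and 57.0 CPM in Cvi in O3 and 21.3, 23.7 and 23.4 CPM in Cvi in CA, and 95.7, 125 and 104 CPM in Sha in O3 and 26.8, 43.5 and 31.2 CPM in Sha in CA. Its O3 and CA libraries did not overlap. GSTL2, the lambda enzyme of plastids, had 39.4, 30.9 and 30.8 CPM in Sha in O3 and 77.1, 62.4 and 58.2 CPM in Sha in CA (-0.97 ± 0.168, adjusted p = 1.53e-05). In Cvi its log2 fold change of -0.27 ± 0.166 was not called. An annotated gene also overlaps GSTU2, GSTU6, GSTU7, GSTU10, GSTF2, GSTF4, GSTF10, GSTF12, GSTZ1, GSTL2 and GSTL3 on the opposite strand and GSTF8 and GSTU10 on the same strand, so that reads of these neighbours may be among their counts.

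The log2 change in O3 was greater in Cvi than in Sha for 12 members and lower for 1, GSTU27 (the interaction of accession and treatment, Cvi response minus Sha response). These 13 of 46 stood beside 8.93% of all genes tested called, 6.33% higher and 2.6% lower, and the median difference was 0.39 for the members and 0.03 for all genes. By class, 10 of 28 tau genes were called higher and 1 lower, and 1 of 13 phi genes was called higher, with medians of 0.52 for tau and 0.44 for phi. No test compared the classes. With the replicate number as a block, GSTL2 was also called, with a difference of 0.69 (adjusted p = 0.0334), which made 13 higher and 1 lower. Without replicate 2 of Sha in both treatments, 14 members were called higher and 2 lower, among them 11 tau genes higher and 2 lower, and 2 phi genes higher.

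The levels behind these differences are given for each gene in O3 and then in CA. For GSTL1, GSTU8, GSTU7, GSTU3, GSTU4 and GSTF6, Cvi was called lower than Sha in CA, and no difference was called in O3. GSTL1 (AT5G02780, chromosome 5, 630748 to 632792, plus strand), a lambda gene, had 168, 151 and 145 CPM in Cvi in O3 and 138, 125 and 203 CPM in Sha in O3, and 0.627, 0.348 and 0.479 CPM in Cvi in CA and 4.99, 1.60 and 4.53 CPM in Sha in CA. Its O3 libraries overlapped and its CA libraries did not, and its difference in response was 2.90 ± 0.490 (adjusted p = 6.62e-07). GSTU8 had 16.2, 14.0 and 12.2 CPM in Cvi in O3 and 14.6, 6.57 and 20.8 CPM in Sha in O3, and 0.125, 0.0387 and 0.218 CPM in Cvi in CA and 5.80, 1.38 and 4.40 CPM in Sha in CA (difference in response 4.90 ± 0.801, adjusted p = 5.79e-08). GSTU7 had 100.5, 117 and 89.7 CPM in Cvi in O3 and 111, 107 and 121 CPM in Sha in O3, and 5.83, 5.03 and 4.49 CPM in Cvi in CA and 16.9, 29.9 and 14.5 CPM in Sha in CA (1.84 ± 0.342, adjusted p = 2.86e-05). GSTU3, GSTU4 and GSTF6, whose values stand above, had differences in response of 6.85 ± 1.01 (adjusted p = 6.67e-12), 3.40 ± 0.594 (adjusted p = 2.8e-06) and 1.40 ± 0.447 (adjusted p = 0.0367). The fitted difference of GSTU3 depends on the prior count, since its Cvi CA libraries were at the floor. The call for GSTF6 was lost in 12 of 22 alternatives, among them the sum of its counts with those of GSTF7 (1.30, adjusted p = 0.0943).

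For GSTU11, GSTU12, GSTU21, GSTU22, GSTU5 and GSTU24, Cvi was called higher than Sha in O3. GSTU11 had 62.6, 70.8 and 83.5 CPM in Cvi in O3 and 19.5, 8.32 and 21.2 CPM in Sha in O3, and 0.345, 0.155 and 0.0871 CPM in Cvi in CA and 2.36, 0.581 and 1.65 CPM in Sha in CA. Its difference in response was 5.0 ± 0.667 (adjusted p = 1.86e-11), and that of its neighbour GSTU12 5.89 ± 0.628 (adjusted p = 4.21e-19). For both genes the order of the accessions was opposite in O3 and in CA. GSTU22 had 7.55, 11.6 and 5.85 CPM in Cvi in O3 and 0.649, 0.965 and 1.66 CPM in Sha in O3, and 0.125, 0.116 and 0.174 CPM in Cvi in CA and 1.09, 0.945 and 0.859 CPM in Sha in CA (5.61 ± 0.692, adjusted p = 1.09e-14). GSTU21 had 3.57, 3.52 and 3.31 CPM in Cvi in O3 and 0.216, 0 and 0.0377 CPM in Sha in O3, and was at the floor in Cvi in CA and in both Sha groups. It was thus at least 30.5-fold higher in O3 than in CA in Cvi, and at least 20.4-fold higher in Cvi than in Sha in O3. Its fitted difference in response, 5.51 ± 1.53 (adjusted p = 0.0266), was not called in 6 of 22 alternatives, among them those without replicate 1 of Sha in CA (adjusted p = 0.228), replicate 3 of Sha in CA (adjusted p = 0.172) or replicate 3 of Cvi in CA (adjusted p = 0.0522). GSTU5 had 585, 760 and 548 CPM in Cvi in O3 and 293, 124 and 307 CPM in Sha in O3, and 182, 131 and 129.5 CPM in Cvi in CA and 255, 172 and 219 CPM in Sha in CA (1.93 ± 0.437, adjusted p = 0.00089). In Sha, the O3 and CA libraries of GSTU5 overlapped. For GSTU24, the difference was 2.30 ± 0.633 (adjusted p = 0.00838), and its lowest Cvi O3 library, at 307 CPM, exceeded its highest Sha O3 library, at 175 CPM.

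The single negative difference was that of GSTU27, which had 16.0, 12.0 and 14.9 CPM in Cvi in O3 and 29.3, 42.9 and 23.6 CPM in Sha in O3, and 59.4, 66.6 and 61.1 CPM in Cvi in CA and 53.5, 52.5 and 53.6 CPM in Sha in CA. It fell in both accessions, by 2.12 ± 0.206 in Cvi and by 0.74 ± 0.204 in Sha on the log2 scale, with a difference of -1.38 ± 0.290 (adjusted p = 0.000384). The Sha fall was no longer called without replicate 3 of Sha in CA (adjusted p = 0.0754), replicate 1 of Sha in O3 (adjusted p = 0.11) or replicate 3 of Sha in O3 (adjusted p = 0.177).

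**Figure D4:**
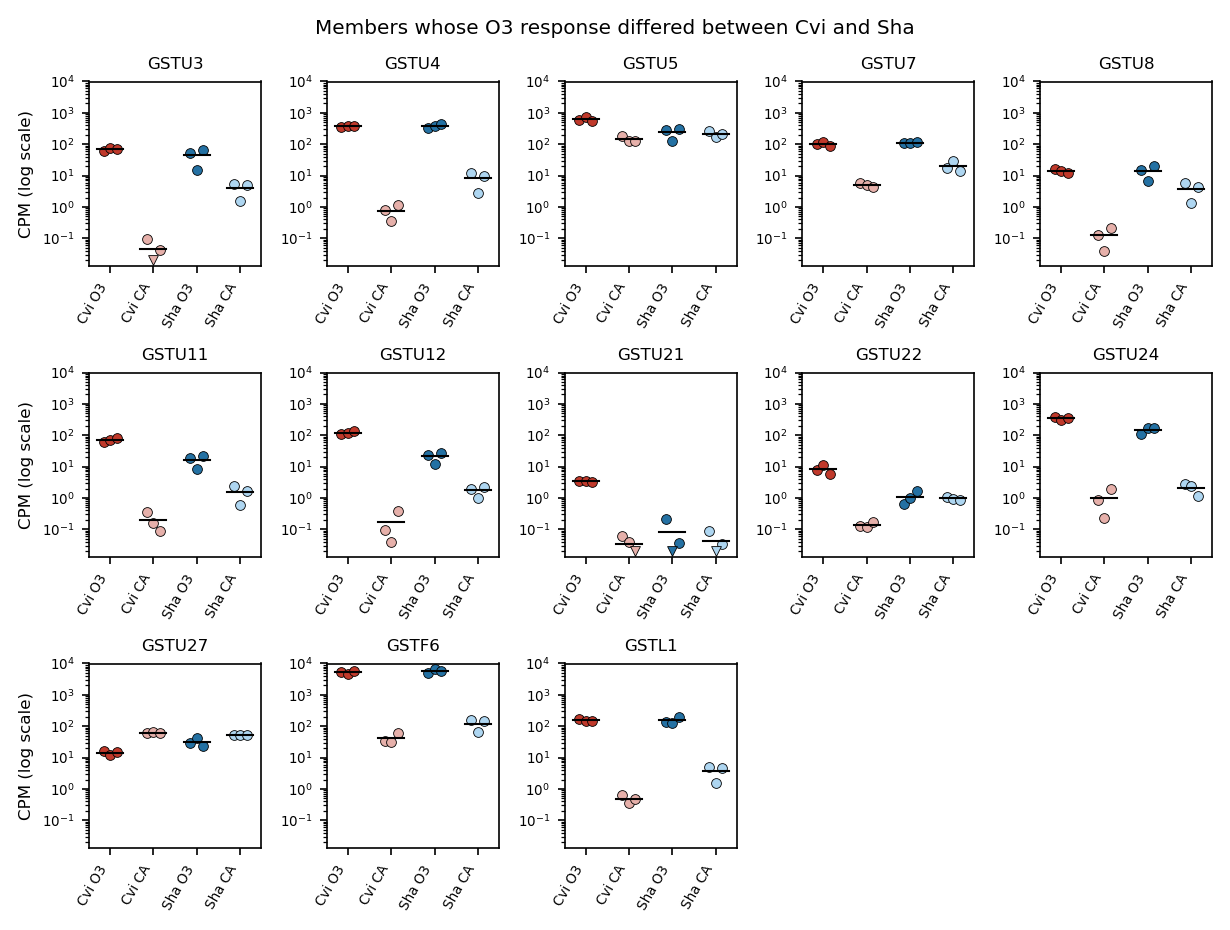
CPM on a log scale in each library of the 13 members called for a difference in response, in Cvi in O3, Cvi in CA, Sha in O3 and Sha in CA, with a line at each group mean and triangles at 0.02 CPM for libraries with no count. In GSTU4, GSTU7, GSTU8 and GSTL1 the O3 points of the accessions lie together and the CA points of Cvi lie below those of Sha, whereas in GSTU11, GSTU12, GSTU21 and GSTU22 the O3 points of Cvi lie above those of Sha.

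The accessions differed already in CA. In Cvi, 15 of the 46 members were called lower than in Sha and 4 higher, beside 18.1% of all genes tested called, 9.28% lower and 8.84% higher. Among tau genes 9 were lower and 4 higher. With the replicate number as a block, GSTU10 was also called higher in Cvi (0.92, adjusted p = 0.0421). The phi genes called lower were GSTF2, GSTF5, GSTF6, GSTF7 and GSTF12. GSTF2 and GSTF7 were each not called in 7 of 23 alternatives, and GSTF5 and GSTF12 in 5 of 23. Differences of at least 4-fold were found for GSTU1, GSTU3, GSTU4, GSTU8, GSTU11, GSTU12, GSTU22 and GSTL1, all lower in Cvi, and for GSTU16, higher in Cvi. GSTU3 was at least 35.3-fold lower in Cvi. Because reads were matched to Col-0 transcripts, a polymorphic gene may have kept fewer reads in Cvi or in Sha, and its part in these values was not tested. In O3, the log2 differences (Cvi over Sha) of GSTU3, GSTU4, GSTU8 and GSTL1 were 0.64 ± 0.486, -0.03 ± 0.396, 0.01 ± 0.462 and -0.01 ± 0.296, none of them called. That of GSTU1 was -3.99 ± 0.534 in O3 and called. GSTU11 (2.14 ± 0.382), GSTU12 (2.49 ± 0.327), GSTU22 (2.87 ± 0.375) and GSTU16 (1.08 ± 0.396) were called higher in Cvi in O3. Of the 3 flower markers, 2 were called lower in Cvi than in Sha in CA and 3 in O3, and the part of this in the differences of GST levels between the accessions was not tested.

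GSTU1 was lower in Cvi in O3 as well. It had 1.34, 1.09 and 0.905 CPM in Cvi in O3 and 18.9, 4.95 and 29.0 CPM in Sha in O3, and 0.125, 0 and 0.0871 CPM in Cvi in CA and 2.00, 1.02 and 1.2 CPM in Sha in CA. Cvi was lower by a log2 difference of -3.99 ± 0.534 in O3 (adjusted p = 5.38e-10) and of -4.14 ± 0.801 in CA (adjusted p = 4.04e-07), and the rise in O3 was 3.82 ± 0.798 in Cvi and 3.66 ± 0.538 in Sha. GSTU16 had 10.8, 7.18 and 9.75 CPM in Cvi in O3 and 5.63, 5.91 and 1.70 CPM in Sha in O3, and 26.5, 30.1 and 24.4 CPM in Cvi in CA and 4.72, 7.99 and 3.37 CPM in Sha in CA. It was higher in Cvi in CA by 2.34 ± 0.392 (adjusted p = 9.3e-07). GSTU17 and GSTU26 were also higher in Cvi in CA, by 1.77 ± 0.325 and 1.95 ± 0.231.

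In O3, more tau genes were called higher than lower in Cvi relative to Sha. In Cvi, 16 members were called higher than in Sha and 7 lower, beside 32.4% of all genes tested called, 18.5% higher and 13.9% lower, and 14 of the 28 tau genes were higher and 4 lower. Of the 13 phi genes, 1 was higher (GSTF8) and 2 lower (GSTF5 and GSTF12). The call of GSTF8 was lost in 6 of 23 alternatives, that of GSTU16 in 8 and that of GSTU24 in 5. The median log2 difference in O3 was 0.86 for tau and -0.16 for phi, beside 0.04 for all genes. GSTU9 was called lower in Cvi in O3, a call lost in 14 of 23 alternatives. Its levels were 17.0, 16.8 and 18.6 CPM in Cvi in O3 and 15.1, 100.1 and 21.8 CPM in Sha in O3, and replicate 2 of Sha alone lay above the others. Without replicate 2 of Sha in both treatments the log2 difference was -0.13 (adjusted p = 0.758), and with the replicate number as a block it was -1.02 (adjusted p = 0.112).

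Position and sequence were compared with these responses. By the RefSeq annotation of TAIR10.1, 31 of the 46 members lie in 10 tandem arrays, runs in which neighbouring members are at most 20000 bases apart. The array with the most members, GSTU7 to GSTU1 on chromosome 2 from 12617936 to 12632538 (14.6 kb), holds 7 tau genes on 1 strand, of which 6 were called higher in each accession. In the array of GSTF7, GSTF6, GSTF5 and GSTF4 on chromosome 1 from 658578 to 666471, the first 3 were called higher in both accessions and GSTF4 was not. In 5 arrays, members were called in opposite directions within an accession at the 1.2-fold limit. With the limit read as a log2 value, no array held called members of opposite direction. GSTF9 and GSTF10, neighbours on chromosome 2 from 13138882 to 13142676 with 80.0% identical proteins, were one of the 5 arrays. GSTF10 had 780.3, 554 and 702 CPM in Cvi in O3 and 160.2, 184 and 192 CPM in Cvi in CA, and 579, 642 and 679.5 CPM in Sha in O3 and 123, 162 and 109 CPM in Sha in CA. It rose by 1.93 ± 0.204 in Cvi and 2.27 ± 0.204 in Sha, where GSTF9 fell by 0.89 ± 0.185 and by 0.81 ± 0.186. The others were GSTL1 (higher) with GSTL3 (lower), 73.1% identical, GSTU24 and GSTU25 (higher) with GSTU26 (lower), GSTU15 (higher) with GSTU16 (lower in Cvi), and the array of GSTU19, GSTU21 and GSTU22 (higher in Cvi) with GSTU20 and GSTU23 (lower in Cvi). GSTU19 and GSTU20 were 73.5% identical. Over all pairs, proteins of the tau class shared 26.1 to 81.3% identity (median 38.6%), those of the phi class 28.5 to 93.3% (median 39.05%), and a tau with a phi protein 15.0 to 26.1% (median 20.6%).

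**Figure D5:**
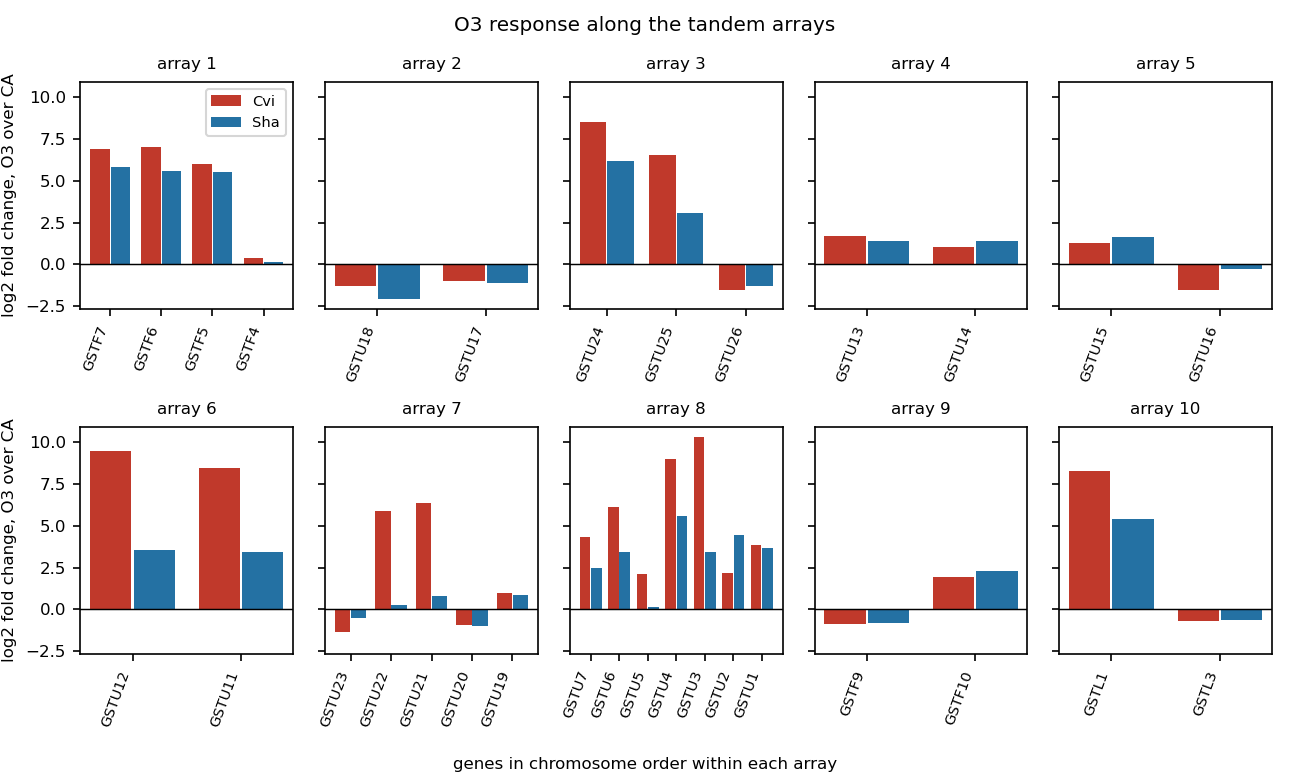
Log2 fold change in O3 over CA in Cvi and in Sha of the 31 members in the 10 tandem arrays, in chromosome order within each array. In arrays 3, 5, 7, 9 and 10, members called in opposite directions at the 1.2-fold limit stand side by side, as GSTF9 (-0.89 in Cvi) and GSTF10 (1.93 in Cvi) in array 9.

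The sequences upstream of 4 genes with large increases are shown so that motifs of factor families known in GST induction can be read in them. These are the 250 bases before the annotated gene start (RefSeq, TAIR10.1, on the strand of the gene), written 5′ to 3′. Capitals mark TGACG, the core of sites of TGA bZIP factors, TTGAC, the core of the W-box of WRKY factors, and CACGTG, the G-box, on either strand, so that CGTCA and GTCAA mark the opposite strand. The window of GSTU3 is chr2:12629641-12629890 (minus strand), that of GSTU4 chr2:12627892-12628141 (minus strand), that of GSTU12 chr1:26335631-26335880 (minus strand) and that of GSTF7 chr1:659981-660230 (minus strand). The window of GSTU24 overlaps the neighbouring gene AT1G17160 and is not shown. That of GSTF6, also among the largest increases in Sha, is not shown either, and it held 1 TTGAC and 1 CACGTG.
GSTU3: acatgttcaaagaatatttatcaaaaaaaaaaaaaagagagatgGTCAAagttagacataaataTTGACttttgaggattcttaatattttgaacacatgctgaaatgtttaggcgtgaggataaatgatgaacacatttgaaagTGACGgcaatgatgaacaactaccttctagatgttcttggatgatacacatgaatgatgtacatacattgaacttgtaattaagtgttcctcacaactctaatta
GSTU4: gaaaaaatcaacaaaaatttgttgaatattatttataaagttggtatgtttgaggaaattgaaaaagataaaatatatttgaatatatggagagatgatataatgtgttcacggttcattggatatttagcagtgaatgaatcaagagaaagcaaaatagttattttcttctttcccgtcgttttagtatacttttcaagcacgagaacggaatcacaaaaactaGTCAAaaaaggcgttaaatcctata
GSTU12: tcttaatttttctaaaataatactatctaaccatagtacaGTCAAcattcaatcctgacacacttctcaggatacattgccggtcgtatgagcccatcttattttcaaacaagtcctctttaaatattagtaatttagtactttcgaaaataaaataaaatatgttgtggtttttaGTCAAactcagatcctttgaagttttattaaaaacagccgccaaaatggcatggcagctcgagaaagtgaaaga
GSTF7: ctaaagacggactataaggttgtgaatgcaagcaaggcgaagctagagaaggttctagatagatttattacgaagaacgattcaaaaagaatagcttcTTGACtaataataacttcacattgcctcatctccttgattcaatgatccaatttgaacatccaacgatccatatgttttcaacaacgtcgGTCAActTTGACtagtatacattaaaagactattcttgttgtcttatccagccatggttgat

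TGACG was found in the window of GSTU3, 105 bases before the start, and in none of the other 3 shown, while TTGAC was found in all 4, with 3 matches in GSTF7, 2 each in GSTU3 and GSTU12 and 1 in GSTU4. Over all members, 15 of 46 windows held TGACG (11 of 28 tau, 3 of 13 phi), against 18.6% of 27443 windows of the same length. TTGAC was held by 28 of 46 (17 tau, 7 phi), against 44.9% of all windows, and CACGTG by 4 of 46, against 6.5%. Among the 25 members called higher in both accessions, 11 held TGACG, 15 TTGAC and 1 CACGTG. Among the 9 called lower in both, 2 held TGACG, 5 TTGAC and 3 CACGTG. Windows that overlap another annotated gene were counted in all these shares. Among those with CACGTG, the window of GSTU18 overlaps GSTU17 and that of GSTL3 overlaps GSTL1. Among those with TGACG in members called higher, the windows of GSTU7, GSTU24 and GSTF8 overlap another gene. A match is a description of letters and no site of binding.

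Genes that make, recycle, break down and transport glutathione were counted beside the GSTs. Of 17 such genes, 8 were called higher in O3 and 6 lower in Cvi, and 6 higher and 3 lower in Sha, beside 24.3% of all genes tested higher and 23.2% lower in Cvi, and 17.9% higher and 16.6% lower in Sha, with median log2 fold changes of -0.09 in Cvi and 0.28 in Sha. GGT1, a gamma-glutamyl transpeptidase that starts the breakdown of conjugates outside the cell, had 770.1, 682.1 and 666.8 CPM in Cvi in O3 and 60.8, 66.0 and 55.0 CPM in Cvi in CA, and 312, 137 and 288 CPM in Sha in O3 and 52.9, 40.2 and 69.5 CPM in Sha in CA. It rose by 3.54 ± 0.285 in Cvi and 2.18 ± 0.286 in Sha. The related GGT2, named for its fitted change, had at most 1.15 CPM in any library and was at 0 in Sha in CA. ABCC3, a transporter of glutathione conjugates, rose by 2.47 ± 0.270 in Cvi and 2.88 ± 0.270 in Sha. GSH2, which completes glutathione synthesis, rose by 0.99 ± 0.177 in Cvi and 1.13 ± 0.178 in Sha, while GSH1, which starts it, was not called (-0.09 ± 0.189 in Cvi and -0.03 ± 0.189 in Sha). GR2, the reductase of plastids and mitochondria, fell by 1.14 ± 0.172 in Cvi and by 1.31 ± 0.173 in Sha. The other glutathione reductase on the list, GR1, was called higher, by 0.55 ± 0.165 in Cvi and 0.83 ± 0.165 in Sha. The log2 change in O3 was called greater in Cvi for 2 of the 17, beside 6.33% of all genes: GGT1 (1.36 ± 0.404, adjusted p = 0.0222) and GGP1 (1.06 ± 0.269, adjusted p = 0.0065), a gamma-glutamyl peptidase that processes conjugates, which rose by 1.35 ± 0.190 in Cvi and had a log2 fold change of 0.28 ± 0.190 in Sha that was not called.

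Of 7 regulators of detoxification genes (6 TGA factors and SCL14), 3 were called higher and 1 lower in Cvi, and 4 higher in Sha. Beside them, 24.3% of all genes tested were called higher and 23.2% lower in Cvi, and 17.9% higher in Sha. TGA3 had the largest change, 2.28 ± 0.181 in Cvi and 2.29 ± 0.182 in Sha, and SCL14 rose by 0.78 ± 0.164 in Cvi and 0.81 ± 0.165 in Sha. TGA2 fell by 0.69 ± 0.204 in Cvi and had a log2 fold change of 0.14 ± 0.203 in Sha that was not called.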

How the data were processed

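Whole rosettes of Cvi and Sha after O3 or CA were analysed (12 libraries, grouped by their titles). The deposited table holds estimated counts per locus, which the authors made by trimming reads with Trimmomatic 0.33 and assigning them with kallisto to AtRTD2 transcripts, a set built on the Col-0 genome. Whether strand was used is not given in the sources used here. These expected counts were not whole for 69.45% of values and were rounded. A further 6 sample columns were not used. Loci without a count (5663) were removed.

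Total counts per library ranged from 10794686 to 33571953. Counts were fitted with edgeR 4.0.16 in R 4.3.3 (TMM, 1 mean per group, 12 libraries together, likelihood-ratio test by glmTreat against a 1.2-fold change), and p-values were adjusted by Benjamini-Hochberg over all 28549 genes tested. The study prints its limit of 1.2 as a log2 value, which was taken here as a fold change. The log2 reading, the quasi-likelihood test, DESeq2 1.42.0, other scaling, filters, thinning, summed copies and single libraries left out were alternatives. SE come from the fitted model. A gene with at most 3 counts in every library of a group is at the floor there, and its fold change is a bound against 3 counts per library. The fits were tested on simulated counts.

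Libraries with the same replicate number correlated in their deviations from group means at 0.443 to 0.619 between the Sha treatments and 0.257 to 0.463 between the accessions in CA, which was taken as pairing. The correlations were -0.115 to 0.132 between the Cvi treatments and -0.171 to 0.031 between the accessions in O3. The main fits did not use this pairing. A replicate block, with the effect of the replicate number shared by all 4 groups, was an alternative. No fit modelled a pairing within Sha alone, so its part in the Sha calls was not tested.

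All 46 members could be named. Values of every library are given for the 3 largest called increases and decreases per accession, members called for the difference in response, those at least 4-fold different between accessions in CA and the member of highest CPM in each class. Other members given in full (GSTF8, GSTF9, GSTF10, GSTU2, GSTU6, GSTU9, GSTU25, GSTL2) and genes of the lists beyond the 2 of largest change per accession were chosen after their values were seen. The members and lists were chosen with earlier results of these data known. Annotation, upstream windows and translated coding sequences come from RefSeq TAIR10.1.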

Additional observations from a re-analysis of the deposited data

Results flagged for a closer look

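For 13 members the interaction test gave a different O3 response in Cvi than in Sha (Cvi response minus Sha response, log2). The difference was positive for the tau genes GSTU3 (6.85), GSTU4 (3.40), GSTU5 (1.93), GSTU7 (1.84), GSTU8 (4.90), GSTU11 (5.0), GSTU12 (5.89), GSTU21 (5.51), GSTU22 (5.61) and GSTU24 (2.30), for the phi gene GSTF6 (1.40) and for the lambda gene GSTL1 (2.90). It was negative for GSTU27 (-1.38). GSTU3 and GSTU21 were at the floor in Cvi in CA, so their fitted differences depend on the prior count. GSTU8, GSTU11, GSTU12 and GSTU22 had at most 11 counts in any Cvi CA library, so the size of their differences is uncertain too.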

How the results depend on the processing

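No called result changed direction. The shares of all genes called at a minimum log2 fold change of 1.2 are not given here, so the counts at that limit have no background beside them. A minimum log2 fold change of 1.2 left 2 members lower in Cvi (1 tau, 1 phi), 1 lower in Sha (1 tau, 0 phi), 10 tau genes higher in Sha, 7 members higher and 0 lower for the difference in response (6 and 0 tau, 0 phi), 2 higher and 9 lower for Cvi against Sha in CA, and 7 higher and 2 lower in O3. The number of phi genes with a higher response in Cvi was 0 with the quasi-likelihood test, 2 with DESeq2, 0 with copies summed, and 2 without replicate 2 of Sha in both treatments, an alternative chosen after seeing the data, which also gave 2 members (2 tau) with a lower response. Leaving out 1 library at a time gave 0 to 2 phi genes higher and 1 to 2 members (1 to 2 tau) lower for that difference.

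The fall of GSTU17 was not called without replicate 1 of Cvi in CA (adjusted p = 0.0656) or replicate 3 of Cvi in O3 (adjusted p = 0.0537) in Cvi, nor without replicate 1 of Sha in CA (adjusted p = 0.0557) in Sha. The difference of GSTF6 lost its call, with values of 1.2 to 1.49, in 9 fits without 1 library, all but those without replicate 2 of Sha in O3, replicate 2 of Sha in CA or replicate 3 of Cvi in CA. In CA, Cvi against Sha was not called without replicate 1 or 2 of Cvi or 1 or 3 of Sha for GSTF2 and GSTF7 (adjusted p 0.0549 to 0.199), without replicate 2 or 3 of Cvi or 1 or 2 of Sha for GSTF12 (0.0626 to 0.117), and without replicate 2 of Cvi or 2 or 3 of Sha for GSTF5 (0.076 to 0.163). In O3 it was not called without replicate 3 of Cvi or 1 or 2 of Sha for GSTF8 (0.0615 to 0.0869), without replicate 1 or 3 of Cvi or 1 or 3 of Sha for GSTU24 (0.0517 to 0.129) and, with replicate 3 of Sha in CA added, for GSTU16 (0.0534 to 0.214), and without replicate 3 of Sha for GSTL2 (0.0751) and GSTU28 (0.0831). In Cvi the fall of GSTL3 was not called in 5 such fits (adjusted p 0.0524 to 0.11), those without replicate 2 of Cvi in CA, 1 or 2 of Cvi in O3, 1 of Sha in O3 or 3 of Sha in CA. In Sha it was not called in 9 (0.0554 to 0.35), all but those without replicate 2 of Cvi in CA, 2 of Sha in O3 or 1 of Sha in CA, and that of GSTT1 in 10 (0.0504 to 0.312), all but those without replicate 1 of Cvi in O3 or 2 of Sha in O3. The replicate block, shared by both accessions, gave 28 higher and 11 lower in Cvi and 26 and 10 in Sha. It changed the calls of GSTL2 for the difference (0.69, adjusted p = 0.0334), of GSTU10 in CA (0.92, adjusted p = 0.0421) and of GSTU9 in O3, and no other call.

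Without the most abundant gene of each class, sums in CPM were 2878 (tau) and 7295 (phi) in Cvi in O3, 1005 (tau) in Cvi in CA, 1933 (tau) and 8027 (phi) in Sha in O3, and 859.7 (tau) and 1736 (phi) in Sha in CA. Without TMM scaling, the sum was 3303 CPM for tau in Cvi in O3, 15651 CPM for phi in Sha in O3 and 1927 CPM for phi in Sha in CA. The causes were not tested. Depth limits GSTU2, GSTU6, GSTU21, GSTU25, GSTF13 and GSTF14, and in Cvi in CA also GSTU1, GSTU3, GSTU8, GSTU11, GSTU12, GSTU22, GSTF3 and GSTF5.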
